A study of Mus musculus with 6 samples.

Results

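The SPARC family is a group of secreted matricellular genes, and 8 of its members were taken by symbol from the 35727 genes of the count table: Spock1, Spock2 and Spock3 (the testicans), Sparc, Sparcl1, Smoc1, Smoc2 and Fstl1. All 8 were found, all as protein-coding genes. The family was chosen by its name and for the low Spock2 level in shPostn against shSCR, which is the only comparison in these data, with its results already known. Every difference between groups below is therefore a description of these libraries.

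The 6 libraries were RNA sequencing of red-fluorescent mouse sarcoma cells sorted from transplanted tumours, 3 with a scrambled hairpin (shSCR) and 3 with a hairpin against Postn (shPostn), the gene of the matricellular protein periostin. Every library came from 1 undifferentiated pleomorphic sarcoma line, p53 KO Ccne1 OE, derived from mesenchymal stem cells of female p53KO C57/Bl6 mice that had received a retroviral vector for Ccne1 and the fluorescent tracer, and passaged through wild-type female mice. Sample titles call the groups Postn-WT and Postn-KO, while the protocol describes a hairpin, so p53 loss and Ccne1 overexpression are shared by both groups. The labels give neither the mice nor the tumours behind each library nor a further hairpin or clone, so the spread between libraries may be technical and a difference between the 2 cell lines unrelated to periostin cannot be told apart from one of Postn silencing.

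Proteins of this family share a follistatin-like domain and, in most members, a calcium-binding extracellular domain, and act between cells and matrix rather than as structural fibres. SPARC itself binds fibrillar and basement membrane collagens and takes part in their secretion and assembly. Testicans are secreted proteoglycans that carry glycosaminoglycan chains and have been studied as inhibitors or modulators of matrix metalloproteinases and cathepsin L, SMOC proteins bind heparan sulfate and oppose BMP signalling, and FSTL1 is a glycoprotein that binds BMP4 and is made mainly by mesenchymal cells.

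Library totals lay between 19603269 and 20376554 counts, with 15901 to 16666 genes detected. Postn, the targeted gene, measured 4097, 3602 and 3225 CPM (counts scaled to the library's TMM-normalised total) in shSCR and 217, 471 and 639 CPM in shPostn, so the residual level differed among the 3 silenced libraries. All 10 mesenchymal markers passed the filter on low counts, with a summed level between 36000 and 55600 CPM per library. Most of that sum was Col1a1, Col1a2, Col3a1 and Fn1. Lum measured 29.3, 69.6 and 69.1 CPM in shSCR and 2.72, 13.3 and 23.7 CPM in shPostn. Dcn measured 92.9, 129.7 and 184.3 CPM against 73.3, 37.1 and 59.3 CPM. Vim was higher in every shPostn library, at 3688, 3059 and 3396 CPM against 4394, 4133 and 4095 CPM. Neither Lum, Dcn nor Vim was called. The 10 leukocyte markers summed to 58.3 to 162 CPM in shSCR and to 99.0, 39.6 and 715 CPM in shPostn replicates 1, 2 and 3, which sets replicate 3 apart. The 10 endothelial markers summed to 5.86 to 8.02 CPM in shSCR and 3.49 to 9.29 CPM in shPostn, and the 7 pericyte markers to 224 to 256 and 226 to 282 CPM, most of it Cspg4. Below these sums, the pericyte marker Notch3 measured 14.5, 34.9 and 21.4 CPM in shSCR and 1.23, 2.68 and 6.04 CPM in shPostn. Mcam went the other way, from 18.45, 16.91 and 16.55 CPM to 44.07, 22.75 and 63.69 CPM, and neither was called. The skeletal muscle, adipocyte, epithelial and neural lists each summed to at most 4.45 CPM in any library. In bulk RNA, fewer cells of a type and less RNA per cell cannot be told apart.

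Of the 8 family members, 5 passed the filter (Spock2, Fstl1, Sparc, Smoc1 and Sparcl1), 2 had too few reads to be tested (Spock3 and Smoc2), and Spock1 had no read in any library. In an edgeR quasi-likelihood fit over 12819 genes, with a call at an adjusted p below 0.05, 1 member was called lower in shPostn (Spock2) and 1 higher (Fstl1). Over all genes tested, 5.53% were called lower, 4.61% higher and 10.1% either way, and since the family was chosen with this comparison known, nothing is read from the 2 calls among 5 tested members. The libraries of the 2 groups did not overlap for 2 of the 5 tested members, against 33.6% of all genes tested.

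The promoter windows of these 2 called members are shown because Spock2 and Fstl1 differ in opposite directions. Each window holds 300 bases, from 250 before to 50 after the RefSeq start site on build GRCm38.p6, on the plus strand, and RefSeq windows were matched for 5 of the 8 members (Sparc, Spock1, Spock2, Spock3 and Fstl1). Capitals mark matches on either strand to any of 4 motifs: the TATA box (searched as TATAAA), the GC box (GGGCGG), the CCAAT box (by its own 5 letters) and the AP-1 site (TGANTCA). The windows are Spock2 at chr10:60106007-60106306 and Fstl1 at chr16:37776805-37777104.
Spock2: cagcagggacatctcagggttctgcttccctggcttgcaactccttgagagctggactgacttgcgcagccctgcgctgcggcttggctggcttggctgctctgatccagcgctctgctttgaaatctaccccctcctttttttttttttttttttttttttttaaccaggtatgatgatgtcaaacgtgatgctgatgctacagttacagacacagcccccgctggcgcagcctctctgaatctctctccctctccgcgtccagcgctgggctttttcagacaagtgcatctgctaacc
Fstl1: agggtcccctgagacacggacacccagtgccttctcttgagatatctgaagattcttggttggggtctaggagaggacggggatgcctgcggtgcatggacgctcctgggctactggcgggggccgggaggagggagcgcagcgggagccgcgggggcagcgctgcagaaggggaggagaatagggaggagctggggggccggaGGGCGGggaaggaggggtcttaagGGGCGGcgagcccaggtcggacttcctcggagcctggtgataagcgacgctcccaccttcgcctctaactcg
The Fstl1 window held 2 matches to the GC box GGGCGG, which 35.7% of the 32851 RefSeq windows hold, and the Spock2 window held a match to none of the 4 motifs. The shares of windows with the other motifs were 13.6% for the TATA box, 37.4% for the CCAAT box and 7.81% for the AP-1 site. The Fstl1 window was richer in G and C (66.7%, 21 CpG dinucleotides) than the Spock2 window (52.3%, 10 CpG), against a median of 52.7% over all windows.

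Spock2 encodes testican-2, a secreted proteoglycan. It lies on chromosome 10 (GRCm38, 60106219 to 60135198, plus strand), with 3 annotated transcripts. In shSCR it measured 52.5, 57.8 and 43.2 CPM, from 1068, 1182 and 851 counts, and in shPostn 8.36, 7.89 and 9.74 CPM, from 163, 156 and 195 counts. Every silenced library was below every control library, and the 3 silenced libraries lay close together although their residual Postn differed. The group means were 51.2 ± 7.38 CPM for shSCR and 8.66 ± 0.964 CPM for shPostn (SD, n = 3 each), so shPostn held 16.9% of the control level. The log2 fold change was −2.56 (SE 0.14, 95% interval −2.88 to −2.24, not adjusted for the number of genes). The call held with any 1 library left out, where the log2 fold change lay between −2.67 and −2.47.

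**Figure D1:**
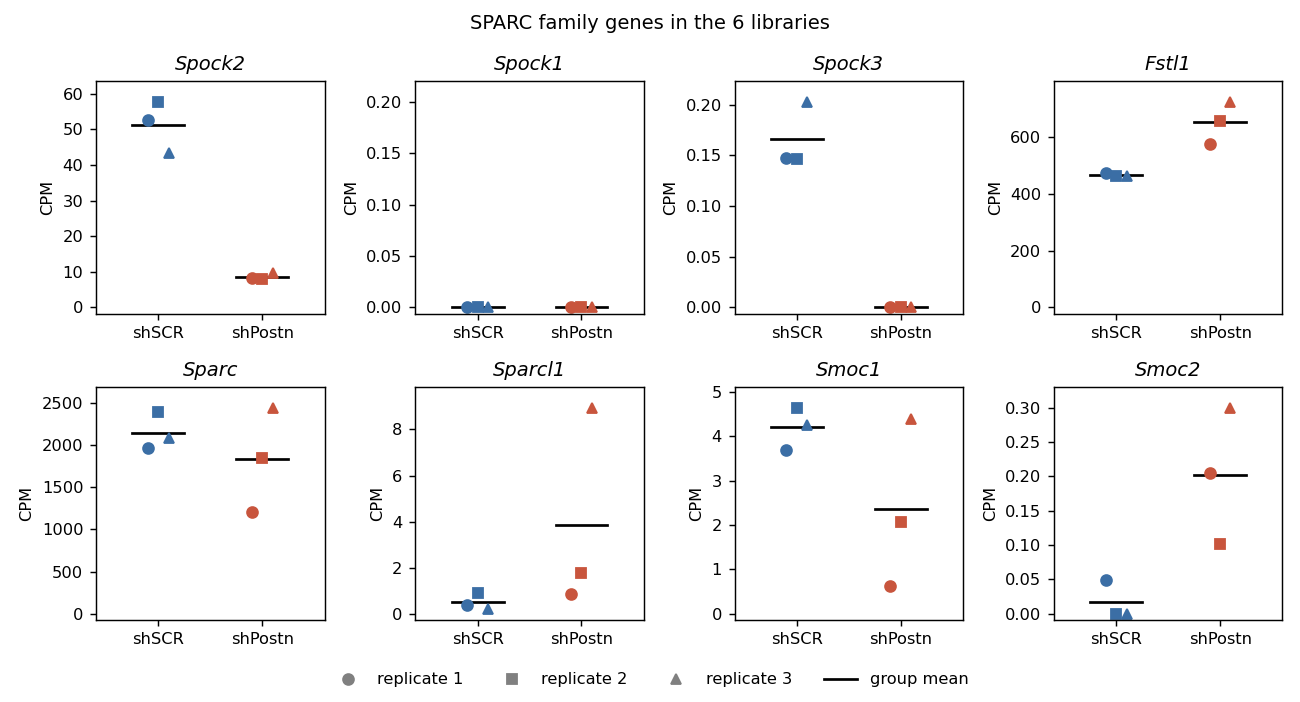
CPM of the 8 members in each library, with 1 panel per gene and its own linear axis; symbols are replicates and lines are group means. Spock2 sits between 43.2 and 57.8 CPM in shSCR and between 7.89 and 9.74 CPM in shPostn, Fstl1 is higher in every shPostn library, and Sparc, Smoc1 and Sparcl1 overlap between groups.

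The differences of the genes around Spock2 were small beside its own. Over the 16 tested genes within 1 Mb of it, log2 fold changes ran from −0.34 to 0.91 with a median of −0.03. None of the 16 was called in either direction, against 10.1% of all tested genes, and with so few genes nothing is read from that count. The nearest tested gene on one side, Ascc1, was at 15.6 ± 0.937 CPM in the controls and 15.3 ± 0.995 CPM in the silenced cells (SD, n = 3 each). On the other side, the chondroitin sulfotransferase gene Chst3 was at 14.2 ± 1.95 and 13.0 ± 2.28 CPM (SD, n = 3 each). The median of chromosome 10 was 0.01. Of the 5515 distinct 31-base words in Spock2 transcripts, 0.943% also occurred in transcripts of another gene and none in another family member.

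The 5 genes whose profile over the 6 libraries was nearest to that of Spock2, by the root mean square difference of log2 CPM centred on each gene's mean, were S1pr3 (difference 0.15), Nkd1 (0.18), Prph (0.21), Lgals7 (0.23) and Wdr66 (0.24). S1pr3, a sphingosine-1-phosphate receptor gene, measured 53.9, 70.2 and 55.4 CPM in shSCR and 11.8, 10.7 and 11.5 CPM in shPostn. Nkd1, an inhibitor of WNT signalling, measured 3.90 ± 0.829 and 0.657 ± 0.0799 CPM (n = 3 each), and Lgals7, the galectin-7 gene, 24.1 ± 5.19 and 4.80 ± 0.634 CPM (n = 3 each). All 5 lie on other chromosomes than Spock2. They were picked for their likeness to Spock2 over these libraries, so their low level in the same 3 libraries follows from that choice.

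The other 2 testicans were at or near absence. Spock1, on chromosome 13, had 0 counts in all 6 libraries, which allows at most 0.0496 CPM in shSCR and 0.0506 CPM in shPostn (3 counts over each group's libraries, covering counting error only). Spock3, on chromosome 8, had 3, 3 and 4 counts in the shSCR libraries and 0 in each shPostn library. Against a floor of 3 counts over the group, Spock3 was at least 3.27-fold lower in shPostn, taking the 10 control counts as exact; with their counting error included, the lower bound of the exact 95% interval was 2.197-fold. Without the count filter Spock3 entered the edgeR fit and was not called. In both groups nearly all testican reads came from Spock2.

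Fstl1 encodes follistatin-like 1, a secreted glycoprotein of mesenchymal cells, and was the second most abundant member. It lies on chromosome 16 (37776873 to 37836514, plus strand). In shSCR it measured 474, 463 and 463 CPM and in shPostn 575, 658 and 725 CPM. The control libraries were nearly identical, and each silenced library was above all of them. Group means were 466.8 ± 6.54 CPM for shSCR and 652.5 ± 74.8 CPM for shPostn (SD, n = 3 each). The log2 fold change was 0.48 (SE 0.09, 95% interval 0.27 to 0.70). The log2 fold change stayed between 0.40 and 0.57 with any 1 library left out, while the call was lost without any 1 of the shSCR libraries or without shPostn replicate 2, where the edgeR adjusted p lay between 0.0679 and 0.105. Around Fstl1, 19 genes were tested within 1 Mb, with a median of 0.02. Of them 1 was called higher and 1 lower, against 4.61% and 5.53% of all tested genes. Of its distinct 31-base words, 6.66% also occurred in transcripts of other genes, none of them family members.

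Sparc, the founding member and a collagen-binding glycoprotein, was the most abundant. It lies on chromosome 11 (55394500 to 55423183, minus strand) and ranked 33rd of all genes by mean CPM in shSCR. It measured 1965, 2394 and 2084 CPM in shSCR and 1207, 1850 and 2443 CPM in shPostn. The silenced libraries lay on both sides of the controls, with replicates 1 and 2 below and replicate 3 above all of them. Group means were 2148 ± 222 CPM for shSCR and 1833 ± 618 CPM for shPostn (SD, n = 3 each). The log2 fold change of −0.23 (SE 0.25, 95% interval −0.83 to 0.38) was not called. The coefficient of variation was 10.3% among shSCR and 33.7% among shPostn libraries. Without shPostn replicate 1 the log2 fold change was −0.00062, and without replicate 3 it was −0.49.

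Within shPostn, Sparc and the collagens it binds were low and high in the same libraries. The list of such collagens had 9 genes, of which 8 were tested (types I, III, IV and V). Of these, 0 were called in either direction (0%, against 10.1% of all tested genes). Their median log2 fold change was −0.04 against 0.01 over all genes. Each of these 8 genes was lowest in shPostn replicate 1 and highest in replicate 3 within that group, an order found for 18.2% of all genes tested and noticed after the values were seen. Their sum was 34900, 40090 and 38990 CPM in shSCR and 23560, 35110 and 46850 CPM in shPostn. Sparc stood at 5.63%, 5.97% and 5.34% of that sum in shSCR and at 5.12%, 5.27% and 5.22% in shPostn, so among the silenced libraries this ratio varied less than the Sparc level itself. Against Col1a1 alone, which encodes a chain of type I collagen, Sparc stood at 24.7%, 25.2% and 25.2% in shSCR and at 23.3%, 20.3% and 18.3% in shPostn. Residual Postn, at 5.97%, 12.9% and 17.5% of its control mean, had the same order among the silenced libraries, as did Fstl1, Smoc1 and Sparcl1, while Spock2 did not. The mesenchymal marker sum, at 36000, 44770 and 55600 CPM, and the endothelial sum, at 3.49, 3.84 and 9.29 CPM, also rank the silenced libraries in that order. The mesenchymal list shares 3 of its 10 genes with the collagens, and its other 7 summed to 15420, 13970 and 14960 CPM, which is not that order. Most of that smaller sum was Fn1 (10330, 8884 and 9835 CPM) and Vim (4394, 4133 and 4095 CPM). Taken singly, Pdgfra, Pdgfrb, Lum and Thy1 did have the order, while Fn1, Vim and Dcn did not. The leukocyte sum was likewise highest in replicate 3, but lowest in replicate 2. The part of cell composition in these levels was not tested.

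**Figure D2:**
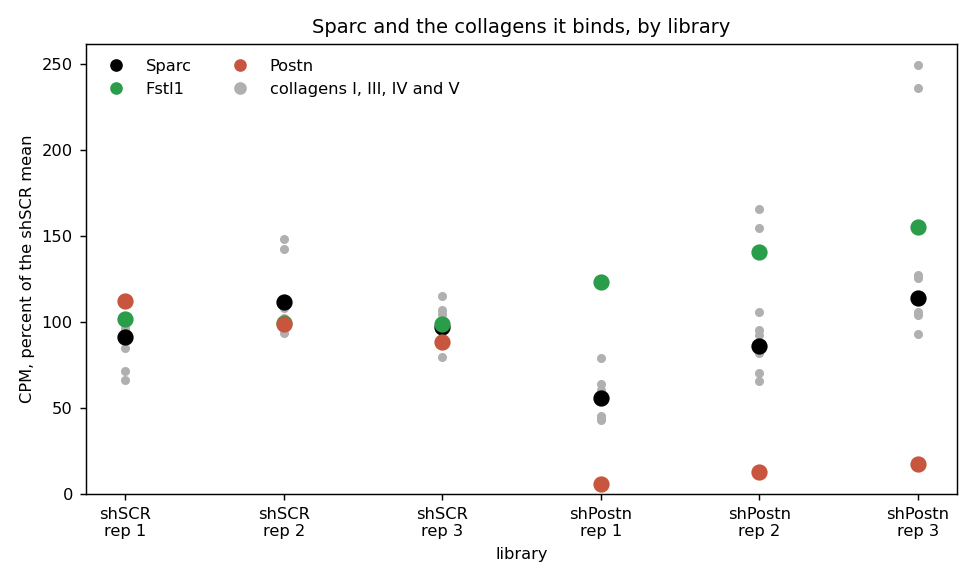
Level in each library as a percentage of the gene's shSCR mean, for Sparc, Fstl1, Postn and the 8 tested collagens (grey). In shPostn, Sparc lies at 56.2%, 86.1% and 114% within the range of the collagens, while Fstl1 lies at 123%, 141% and 155% and Postn below 18%.

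Sparcl1 encodes hevin, the closest relative of SPARC and a gene best known from vessels and astrocytes. It was scarce, with 8, 18 and 4 counts in shSCR and 17, 35 and 179 counts in shPostn, or 0.394, 0.880 and 0.203 CPM against 0.872, 1.77 and 8.94 CPM. shPostn replicate 3 held most of the reads, and replicate 1 lay just below the highest control. The log2 fold change was 2.95 (SE 1.03) and was not called; without shPostn replicate 3 it was 1.41. The count ratio was 7.86 (231 against 30 counts, 95% exact interval 5.36 to 11.9), which covers counting error and not the spread between libraries. The endothelial sum was 3.49, 3.84 and 9.29 CPM in shPostn against 5.86, 7.53 and 8.02 CPM in shSCR. Its 10 markers did not move together. In shPostn replicate 3, Pecam1 was above all other libraries at 3.15 CPM. Kdr, Tek, Egfl7 and Cldn5, which did not pass the filter, were also highest there, at 0.699, 0.300, 0.4995 and 0.0999 CPM. Cdh5 at 2.10 CPM lay within the control range of 1.23 to 3.30 CPM. Vwf and Tie1 lay within the range of the other libraries, Emcn was at 0, and Plvap at 0.799 CPM was below all other libraries. Of the 10 markers 4 were tested and none was called (against 10.1% of all tested genes). Their median log2 fold change was −0.42. Cldn5 was at 0 in shSCR. Replicate 3 is also the library with the high leukocyte sum, and the part of other cells in its Sparcl1 level was not tested. An antisense gene, Gm26703, is annotated over Sparcl1, and since the strand setting of the counting is not given, reads of the 2 cannot be told apart.

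The SMOC genes were low. Smoc1, whose protein opposes BMP signalling, lies on chromosome 12 (81026808 to 81186414) and measured 3.69, 4.64 and 4.26 CPM in shSCR and 0.616, 2.07 and 4.40 CPM in shPostn. The silenced libraries ran from far below the controls to within their range. The log2 fold change was −0.83 (SE 0.61, 95% interval −2.30 to 0.65) and was not called, but it was called without shPostn replicate 3, at −1.64. This estimate had the opposite sign to its surroundings. Chromosome 12 had a median of 0.39. Of 15 tested neighbours within 1 Mb, 10 were called higher and 0 lower, against 4.61% and 5.53% of all tested genes, and their median was 0.53. Both medians lie within the interval of Smoc1. With chromosome medians taken out the Smoc1 log2 fold change was −1.22, also not called. Smoc2, on chromosome 17, had 1, 0 and 0 counts in shSCR and 4, 2 and 6 in shPostn, a count ratio of 12.2 (95% exact interval 1.81 to 523), and was not called without the count filter. An antisense gene, 4930474M22Rik, is annotated over Smoc2.

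**Figure D3:**
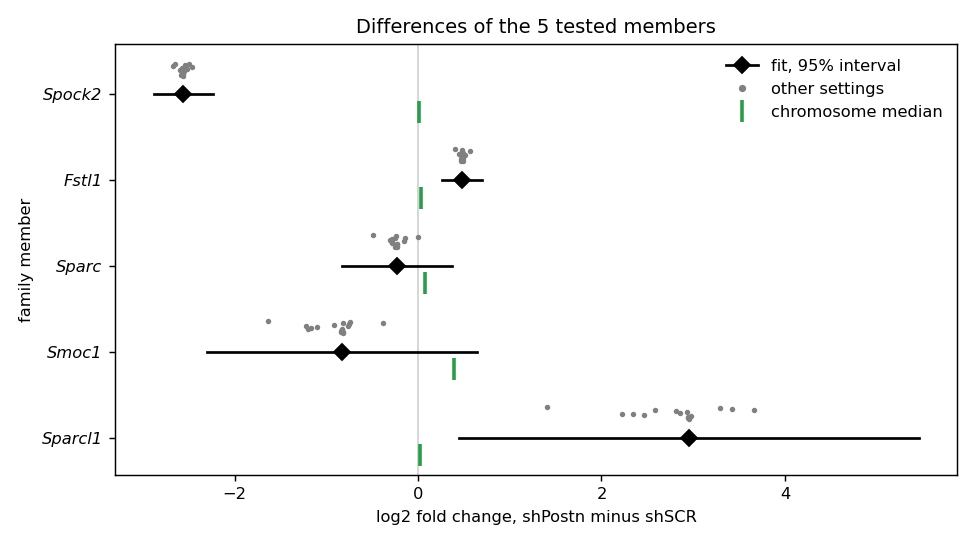
Log2 fold change of the 5 tested members (diamond, with its unadjusted 95% interval), the same under the other settings and with libraries left out (grey dots) and the median of the gene's chromosome (green bar). Spock2 lies near −2.56 under every setting and Fstl1 between 0.40 and 0.57. The Smoc1 estimate has the opposite sign to the median of its chromosome, which lies within its interval.

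Levels were set between genes as CPM per kb of annotated exon. In shSCR the order was Sparc (518.7 to 632 over the 3 libraries), Fstl1 (94.2 to 96.5), Spock2 (7.81 to 10.4), Smoc1 (1.06 to 1.33), Sparcl1 (0.0691 to 0.300), Spock3 (0.0243 to 0.0336) and Smoc2 (0 to 0.00708). The ranges of neighbours in this order did not overlap. In shPostn the first 3 kept their order at 484 ± 163, 133 ± 15.2 and 1.57 ± 0.174 CPM per kb (n = 3 each), but Spock2 was then within the range of Sparcl1 (0.297 to 3.04) and just above that of Smoc1 (0.176 to 1.26). The family's summed level was 2496, 2921 and 2594 CPM in shSCR and 1792, 2519 and 3191 CPM in shPostn, which overlap. Fstl1 made up 15.9% to 19.01% of that sum in shSCR and 22.7% to 32.1% in shPostn, Spock2 1.67% to 2.11% and 0.305% to 0.467%.

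**Figure D4:**
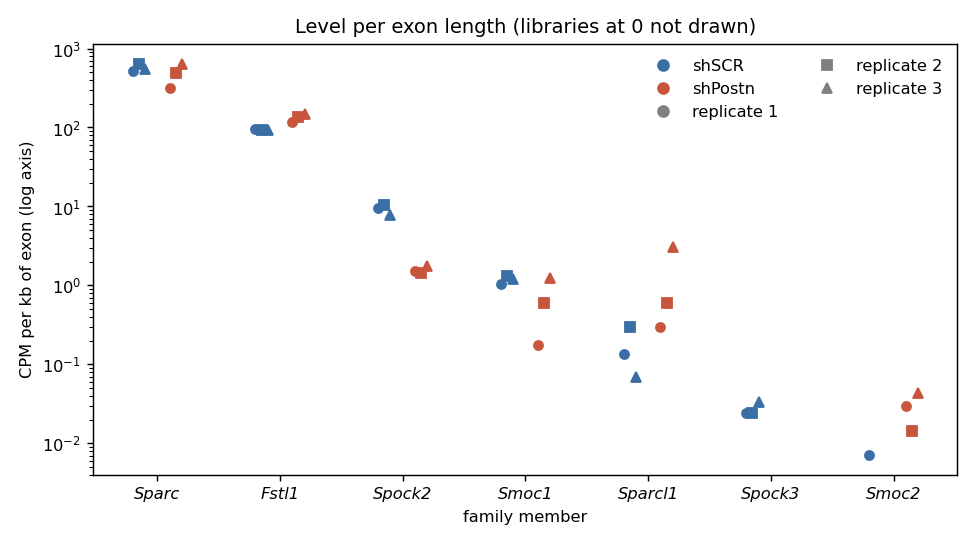
CPM per kb of annotated exon for 7 members on a log axis, by group and replicate; libraries at 0 and Spock1 are not drawn. In shSCR, Sparc lies between 518.7 and 632 and the single drawn Smoc2 library at 0.00708. Spock2 lies between 7.81 and 10.4 in shSCR and between 1.425 and 1.761 in shPostn.

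Genes that act with the family were counted in lists written with earlier results of these data known. With so few genes in a list, nothing particular to it is read from its count. The first list held 12 proteases that cut family proteins or that testicans have been studied as inhibiting or modulating. Of the 11 tested, 2 fell, 1 rose and 8 were not called (27.3% called either way, against 10.1% of all tested genes). Their median log2 fold change was 0.08. Mmp15, which encodes a metalloproteinase anchored in the membrane, was at 6.59 ± 0.978 CPM in controls and fell to 0.960 ± 0.278 CPM (log2 fold change −2.77, SE 0.27; SD, n = 3 each) and was called with any 1 library left out. Mmp16, of the same membrane-bound class, fell from 52.4 ± 3.69 to 39.3 ± 3.84 CPM, and Mmp9, a gelatinase, rose from 24.2 ± 4.75 to 53.0 ± 13.5 CPM (n = 3 each). The Mmp9 log2 fold change of 1.13 was near the threshold: with leukocyte or endothelial markers as a covariate, without the count filter or with chromosome medians taken out it was 1.104 to 1.167 and not called (edgeR adjusted p between 0.0552 and 0.0671). Cathepsin L, the target of testican-1, and Mmp2 and Mmp14 were not called, with log2 fold changes of 0.08 (Ctsl), −0.29 and 0.06.

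Of 13 receptors and clearance genes of SPARC and FSTL1, 12 were tested and only Tlr4, an innate receptor to which FSTL1 has been linked, was called (8.33%, against 10.1% of all tested genes); it fell from 26.2 ± 1.75 to 19.7 ± 0.814 CPM (SD, n = 3 each), with a log2 fold change of −0.41 (SE 0.08). The list's median was 0.16. Stab1, the scavenger receptor of macrophages that takes up SPARC, measured 29.0, 23.9 and 17.8 CPM in shSCR and 35.0, 22.1 and 93.5 CPM in shPostn, highest in the library with the most leukocyte RNA. Dip2a, a proposed FSTL1 receptor, measured between 91.8 and 106 CPM in all 6 libraries.

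Among 11 growth factors that the family binds or opposes, 7 were tested and Bmp4 alone was called (14.3%, against 10.1% of all tested genes). Bmp4, a ligand bound by FSTL1, fell from 20.9 ± 2.77 to 7.87 ± 2.30 CPM (SD, n = 3 each), with a log2 fold change of −1.40 (SE 0.23), in libraries that did not overlap, while the list's median was 0.07. Of 13 other genes with follistatin or Kazal domains, 11 were tested, of which 1 rose and 2 fell (27.3% called either way, against 10.1% of all tested genes), with a median of −0.49. Fstl3, an activin-binding follistatin relative, rose from 21.6 ± 2.74 to 35.0 ± 3.37 CPM (SD, n = 3 each; the log2 fold change was 0.70, SE 0.12). Agrn, a heparan sulfate proteoglycan of basement membranes, fell from 439 ± 18.6 to 274 ± 48.5 CPM (−0.68, SE 0.13), and Htra1, a secreted serine protease, from 815 ± 68.8 to 644 ± 30.4 CPM (−0.34, SE 0.08; n = 3 each). Of the genes called in these lists, Mmp15 alone kept its call with any 1 library left out, and with chromosome medians taken out Mmp16, Mmp9, Tlr4, Agrn and Htra1 were no longer called (edgeR adjusted p between 0.0552 and 0.132). Each log2 fold change moved there by about the median of the gene's chromosome, which that setting takes out. Mmp16, Tlr4 and Agrn all lie on chromosome 4, where the median was −0.14. Mmp16 went from −0.42 to −0.27, Tlr4 from −0.41 to −0.27 and Agrn from −0.68 to −0.54. Htra1, on chromosome 7 (median −0.06), went from −0.34 to −0.28. Mmp9, on chromosome 2 (median 0.03), went from 1.132 to 1.104.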

How the data were processed

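Per the labels' protocols, total RNA came from a TRIzol extraction and BGI prepared stranded mRNA libraries for DNBSEQ. Per the submitters' processing notes, the authors used Salmon and mm10; the deposited file gives estimated counts for 35727 Ensembl genes. Not given in the sources used here are the Salmon version, transcript annotation and strand setting. Every value was whole, so rounding changed nothing. Symbols, positions and exon lengths came from GENCODE release M21 on GRCm38, which matched 35493 IDs; for 45 symbols with several IDs, the plain symbol went to the most abundant ID. Levels per length divide CPM by the union of annotated exons.

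Counts were analysed with edgeR 4.0.16 in R 4.3.3: filterByExpr (minimum count 10), TMM factors, a robust quasi-likelihood F-test of shPostn against shSCR without covariates, and Benjamini-Hochberg adjustment over 12819 genes. Standard errors were derived from each log2 fold change and its F value. Count ratios carry conditional Clopper-Pearson intervals at 95%; these and the floor of 3 counts cover counting error only, as reads carry no molecular identifiers. Chromosome medians used genes above a mean of 4 CPM. The test was tried on simulated data with 200 changed genes, where it recovered 69% of 2-fold and 91% of 4-fold changes. Of its 175 calls there 15 were false, and with no gene changed it made 1 call. The simulated counts were drawn independently for each gene and library. Shifts of whole chromosomes, such as the medians of 0.39 on chromosome 12 and −0.45 on chromosome 18, were not simulated. In the data 10.1% of tested genes were called, so these rates need not hold there. Members, lists and alternatives were chosen with earlier results of these data known. Named were the members, Postn, the 5 genes nearest to Spock2 in profile and its flanking genes. Per list, the 2 called genes with the largest change each way or else the 2 most abundant were named. Col1a1, Ctsl, Mmp2, Mmp14, Stab1, Dip2a, Notch3, Mcam and the mesenchymal and endothelial markers were added after their values were seen. Of the collagens the rule named Col1a2 and Col3a1, at 13750 ± 974 and 10490 ± 1576 CPM in shSCR against 13830 ± 3397 and 7628 ± 2742 CPM in shPostn (n = 3 each), neither called.

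Alternatives used DESeq2 1.42.0, limma-voom (limma 3.58.1), other normalization factors and filters, a replicate block, marker covariates, chromosome medians and each library left out. Figures used Python 3.11.15, pandas 2.3.3 and matplotlib 3.10.9.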

Additional observations from a re-analysis of the deposited data

How the results depend on the processing

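The Spock2 log2 fold change lay between −2.67 and −2.47 under 17 alternatives and was called in all of them. The number of family members called higher was 1 under most alternatives; it was 2 with DESeq2 and with endothelial markers as a covariate (Sparcl1 in addition), 0 with the replicate block, and 0 to 1 with 1 library left out. The number called lower was 1, and 1 to 2 with 1 library left out (Smoc1 in addition without shPostn replicate 3). Same-numbered libraries did not deviate together from their group means (correlations over genes of −0.07, −0.13 and −0.44). Differently numbered ones gave −0.323 to 0.398. With so few libraries these values cannot decide whether the numbers pair them. A replicate block gave 321 genes higher and 414 lower against 591 and 709, and Fstl1, Tlr4, Htra1 and Postn lost their call. DESeq2 gave 948 genes higher, leukocyte markers as a covariate 1002 higher and 1195 lower, and chromosome medians taken out 294 higher and 360 lower. With 1 library left out, 118 to 1028 genes were higher and 189 to 1192 lower, the fewest without shSCR replicate 2 and the most without shPostn replicate 3. Postn lost its call without shSCR replicate 1 (edgeR adjusted p = 0.0532) or replicate 2 (0.0542), with log2 fold changes of −2.95 and −3.05. Genes without a call changed sign: Col1a2 (log2 fold change 0.009) was −0.00881 with upper quartile factors, −0.00082 without a count filter, −0.0176 with limma-voom, −0.0177 with the replicate block, −0.0501 with the leukocyte covariate, and between −0.197 and 0.156 with 1 library left out. Ascc1 (−0.02) lay between −0.0727 and 0.0258 with 1 library left out. In the main fit both estimates were smaller in size than their SE (0.18 for Col1a2 and 0.09 for Ascc1). The cause was not tested. With the longest transcript in place of the union of exons the family's order per length did not change, but mean levels per kb did. In shSCR Sparc went from 566.9 to 933.7, Fstl1 from 95 to 123.2 and Spock3 from 0.0274 to 0.0518 CPM per kb. In shPostn Sparc went from 484 to 797, Fstl1 from 133 to 172 and Smoc2 from 0.0291 to 0.0509 CPM per kb. Sparcl1 did not pass the filter of 1 CPM in 3 libraries and has no value there. Depth limits Spock3, Smoc2 and Spock1, which had 10, 13 and 0 counts in all.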
